A study of Homo sapiens with 10 samples.

Results

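The 83 genes described here encode the collagens, laminins and integrins of the human genome that were counted in D425 and HD-MB03 cells. They were chosen from the 57820 gene identifiers of the count tables as protein-coding entries whose symbol named a collagen chain (44 genes), a laminin alpha, beta or gamma chain (5, 4 and 3 genes) or an integrin alpha or beta gene (18 and 9 genes). The rule reads names and uses no measured value, though the family was picked for description with earlier results of these data known. ITGB1BP1, ITGB1BP2, ITGB3BP and the pseudogene ITGB1P1 were left out as they are not subunits. ITGBL1, which encodes an integrin-like secreted protein and not a subunit, met the naming rule and was kept.

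D425 and HD-MB03 are established lines of Group 3 medulloblastoma, a childhood tumour of the cerebellum, and the study lowered CRX, a photoreceptor transcription factor of the homeobox class, and asked what changes in them. Cells of 3 kinds were compared in each line, all given doxycycline at 4 µg/ml for 72 h: stable polyclonal populations carrying a doxycycline-inducible lentiviral vector with a short hairpin against CRX (shCRX), populations with the empty vector, and parental cells. D425 had 3 shCRX libraries, against 1 vector and 2 parental libraries, and HD-MB03 had 2 shCRX libraries, against 1 vector and 1 parental library. A pair of hairpins was in use, and which of them each library carried is not given in the labels, nor do they say whether libraries of the same group are separate cultures. The p-values therefore refer to the spread among these libraries, part of which may be technical.

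Collagens are triple helices of 3 alpha chains, and each type has its own set of chain genes. Type IV collagens and laminins form the networks of basement membranes, fibrillar collagens form the fibrils of connective tissue, and other types sit on fibrils, form beaded filaments or span the membrane. Laminins are trimers of an alpha, a beta and a gamma chain, and integrins are heterodimers of an alpha and a beta subunit through which cells bind matrix and signal. In the developing cerebellum, the basement membrane under the pia and its integrin receptors anchor glial endfeet and bound the layer of granule neuron precursors.

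The type IV collagen genes lie head to head in pairs, and the levels given below follow these pairs only in part. Reference sequence around the start of the plus-strand gene of each pair is therefore shown. Each window runs from 250 bases before to 50 bases after a RefSeq transcript start of assembly GRCh38.p14, 300 bases in all, is written 5′ to 3′ on the plus strand, and has in capitals the bases that also lie in the window of the partner gene on the minus strand. COL4A2 shares 226 bases with COL4A1 (window chr13:110307034-110307333), COL4A3 shares 82 bases with COL4A4 (window chr2:227164374-227164673), and COL4A5 shares 121 bases with COL4A6 (window chrX:108439588-108439887).
COL4A2: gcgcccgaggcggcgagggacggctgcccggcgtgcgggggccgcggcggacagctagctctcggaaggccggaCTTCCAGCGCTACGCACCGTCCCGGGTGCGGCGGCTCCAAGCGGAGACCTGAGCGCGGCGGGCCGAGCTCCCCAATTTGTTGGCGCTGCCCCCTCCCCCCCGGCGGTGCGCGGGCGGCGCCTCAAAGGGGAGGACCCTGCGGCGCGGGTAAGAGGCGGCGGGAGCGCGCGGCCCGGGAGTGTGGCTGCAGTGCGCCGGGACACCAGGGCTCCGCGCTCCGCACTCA
COL4A3: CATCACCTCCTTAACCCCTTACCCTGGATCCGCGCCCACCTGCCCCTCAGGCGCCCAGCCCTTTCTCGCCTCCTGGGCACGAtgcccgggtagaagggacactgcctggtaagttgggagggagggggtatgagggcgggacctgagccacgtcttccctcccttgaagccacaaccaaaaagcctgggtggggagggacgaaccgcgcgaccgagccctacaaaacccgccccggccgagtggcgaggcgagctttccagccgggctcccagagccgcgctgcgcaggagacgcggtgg
COL4A5: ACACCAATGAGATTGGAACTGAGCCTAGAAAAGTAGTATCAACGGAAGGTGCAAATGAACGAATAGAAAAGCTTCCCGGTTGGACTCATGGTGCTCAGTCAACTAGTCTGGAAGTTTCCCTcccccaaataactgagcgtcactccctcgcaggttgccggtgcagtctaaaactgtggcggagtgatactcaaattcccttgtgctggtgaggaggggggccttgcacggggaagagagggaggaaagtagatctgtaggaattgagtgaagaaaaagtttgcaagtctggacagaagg
The 3 windows held 77.7%, 67.7% and 49.3% G or C for COL4A2, COL4A3 and COL4A5. The letters GGGCGG, the core of a GC box, were found on either strand in the windows of COL4A2 and COL4A3 and were absent from that of COL4A5. Of all 83 genes, 59 had a window in the RefSeq table, with 78 windows in all, and 24 had none. TAATCC, the core sequence bound by CRX-type homeodomains, was found on either strand in 2 of the 78 windows (2.56%), those of ITGA1 and ITGBL1, and in 6.36% of all 35116 windows. TATAAA was found in 12.8% of the 78 windows and 11.5% of all windows, and GGGCGG in 56.4% and 45.0%. These matches describe letters in a window and not binding.

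Between 1.96 and 18.06 M (mega) reads were counted in genes per library, and 3 counts corresponded to 0.166 CPM (counts per M) in the deepest and 1.53 CPM in the shallowest. D425 shCRX libraries (9.53, 4.73 and 3.64 M) and HD-MB03 control libraries (1.96 and 2.08 M) had library numbers of 20 to 62, and D425 control (11.36, 18.06 and 12.45 M) and HD-MB03 shCRX libraries (14.55 and 14.26 M) had numbers from 110 upward, so within a line the set of library numbers and the shCRX arm cannot be told apart. The share of unaligned reads was 5.0% and 6.49% in the HD-MB03 shCRX libraries, against 26.4% and 30.9% in the vector and parental libraries of that line. CRX measured 20.3, 20.9 and 25.3 CPM in the D425 libraries labelled shCRX, against 64.9, 47.5 and 29.7 CPM in the vector and parental libraries, and fell (log2 fold change -1.10 ± 0.26 SE, edgeR adjusted p = 0.0436). In HD-MB03, CRX went against the labels, with 27.7 and 23.5 CPM in the libraries labelled shCRX, against 12.3 and 12.5 CPM in the vector and parental libraries (log2 fold change 1.04 ± 0.36 SE, edgeR adjusted p = 0.174). Summed levels of 10 Group 3 markers were 3204 to 4904 CPM in D425 shCRX and 6040 to 6664 CPM in D425 controls, and 7527 to 7832 CPM in HD-MB03 shCRX and 7310 to 8995 CPM in HD-MB03 controls. Of other cell types, 10 glial markers summed to 32.8 to 48.3 CPM in D425 shCRX and 65.2 to 94.9 CPM in D425 controls, without overlap. In HD-MB03 they summed to 54.9 to 66.3 CPM in shCRX and 35.4 to 56.7 CPM in controls. The glial gene SLC1A3 averaged 22.6 CPM in D425 shCRX, against 63.3 CPM in D425 controls. There OLIG2 averaged 14.2 against 16.6 CPM and GFAP 1.41 against 1.04 CPM. In all libraries 5 of the 10 glial genes stayed below 1 CPM. Neuronal markers summed to 270 to 740 CPM in D425 shCRX and 654 to 789 CPM in D425 controls, and to 1372 to 1586 CPM in HD-MB03 shCRX and 995 to 1295 CPM in HD-MB03 controls. Further, 10 fibroblast and mesenchyme markers summed to 73.4 to 104 CPM in D425 shCRX and 60.8 to 63.5 CPM in D425 controls. In HD-MB03 they summed to 164 to 201 CPM in shCRX and 110.3 to 110.99 CPM in controls, and FAP was at 0 in every library. PDGFRB averaged 54.1 CPM in D425 shCRX, against 23.7 CPM in D425 controls. There PRRX1 averaged 27.2 against 29.2 CPM and TWIST1 1.98 against 3.06 CPM. Between the D425 arms 1 of the 6 tested fibroblast genes passed, with a median log2 fold change of 0.07. Leukocyte markers reached at most 23.2 CPM, with CD3E and LYZ at 0 throughout, and endothelial markers at most 4.54 CPM.

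All 83 genes had at least 1 read in some library, and 57 passed the filter on low counts and were tested: 32 collagen, 8 laminin and 17 integrin genes. The highest level of a gene that was not tested was 8.45 CPM, for COL4A6 in HD-MB03 shCRX replicate 2. A mean of at least 1 CPM was reached by 47 genes in D425 and 44 in HD-MB03. Of these, 37 did so in both lines, 10 in D425 alone and 7 in HD-MB03 alone. The matching shares of all genes are not given. Among the 7, COL14A1, COL4A6 and LAMA4 owed much of their mean to HD-MB03 shCRX replicate 2, at 3.796, 8.45 and 8.38 CPM. The other HD-MB03 libraries reached at most 1.072, 0.520 and 0.286 CPM, in that order. Among the 37, ITGA2, COL7A1 and LAMA3 owed much of their HD-MB03 mean to the same library, at 3.44, 5.80 and 12.7 CPM. Elsewhere in HD-MB03 these genes reached at most 0.536, 1.001 and 1.04 CPM, in that order. COL9A3 was uneven in HD-MB03, with 4.29 CPM in the vector library and 0 in the parental library. Among the genes below a mean of 1 CPM in both lines were the leukocyte integrin subunits ITGAL, ITGAM, ITGAX, ITGAD and ITGB2, and the platelet and endothelial subunit ITGB3.

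Per kilobase of transcript, LAMB1, the laminin beta-1 chain, had the highest level in D425, at a mean of 160 CPM per kb. COL6A1, a chain of the beaded filament collagen VI, followed at 74.7 CPM per kb, then the common integrin subunit ITGB1 at 40.1, the laminin receptor subunit ITGA6 at 31.3 and the basement membrane chain COL4A2 at 26.2 CPM per kb. In HD-MB03 the order began with the fibrillar collagen COL27A1 at 141 CPM per kb, followed by LAMB1 at 116, LAMC1, the common laminin gamma chain, at 66.5, ITGB1 at 59.7 and ITGA4, a receptor subunit for VCAM1 and fibronectin, at 46.7 CPM per kb. LAMB1 and ITGB1 were thus among the 5 highest of both lines. The classical fibrillar chains of connective tissue were low: COL1A1 lay between 2.09 and 9.41 CPM in D425 and between 1.36 and 6.43 CPM in HD-MB03, COL1A2 did not pass 3.08 CPM and COL3A1 did not pass 2.80 CPM in any library.

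**Figure D1:**
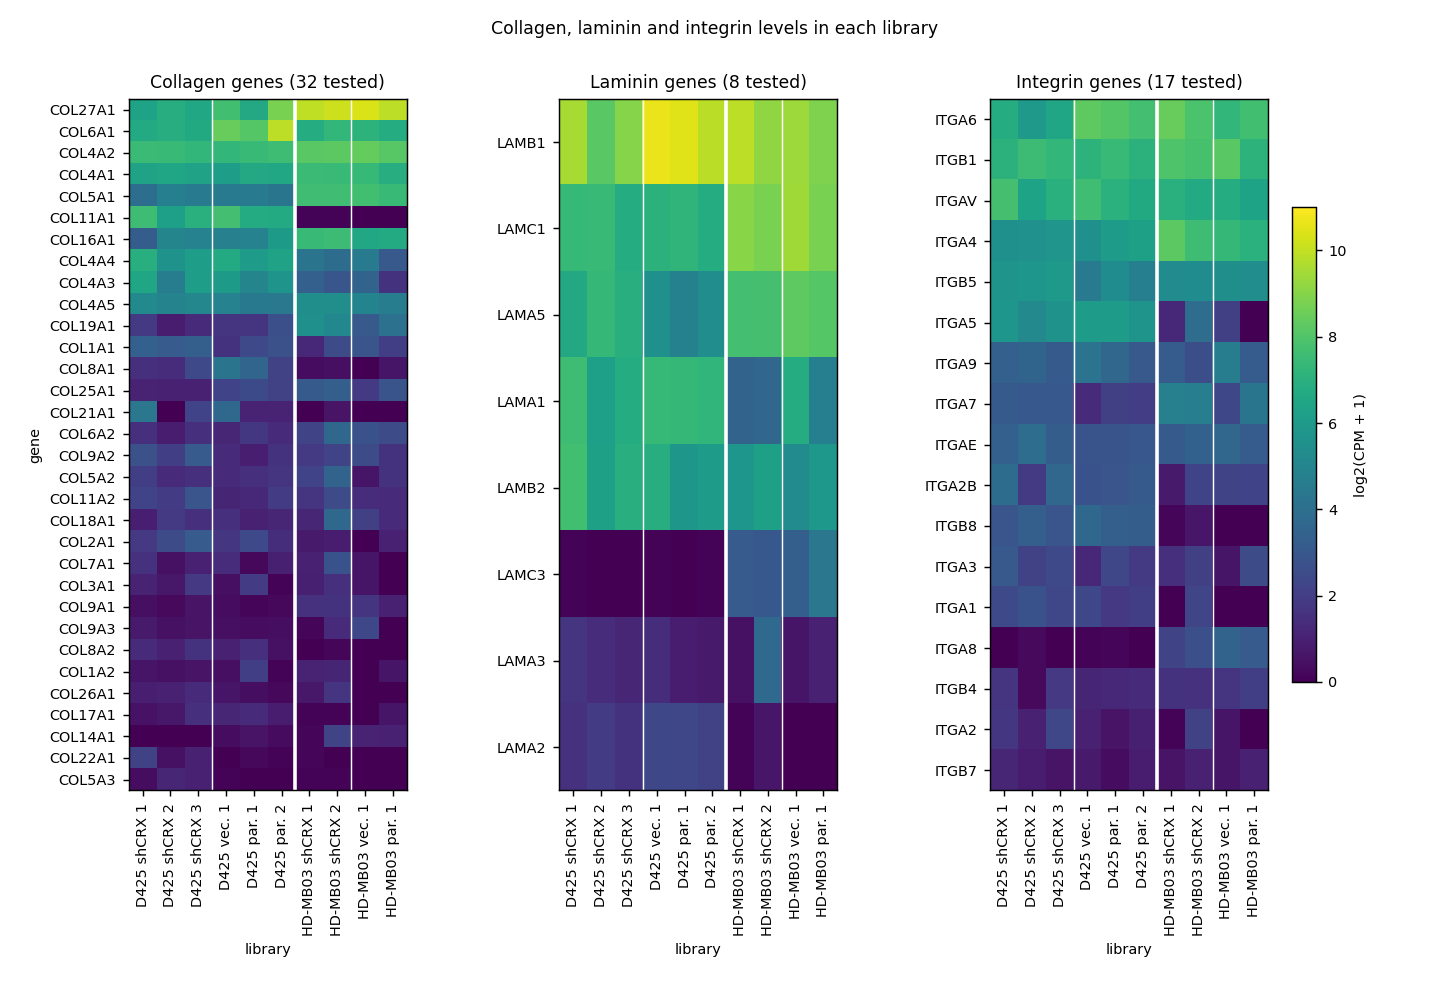
Level of each of the 57 tested genes in each library as log2(CPM + 1), with genes down the page by family and libraries across in the order D425 shCRX, D425 controls, HD-MB03 shCRX and HD-MB03 controls. Yellow cells mark high and dark purple cells low levels; LAMB1 and COL27A1 reach the yellow end, while COL11A1 is green in the 6 D425 libraries (72.8 to 207 CPM) and dark purple in the 4 HD-MB03 libraries.

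The lines differed in which chains of each family they expressed. Of the 57 genes tested, 34 (59.6%) differed between D425 and HD-MB03 over both arms, against 46.0% of all 16006 genes tested. Higher in D425 were 16 (28.1%), against 24.4% of all genes, and 18 (31.6%) were lower, against 21.6% of all. Collagens gave 9 higher, 10 lower and 13 that did not pass, laminins 3, 3 and 2, and integrins 4, 5 and 8. The median log2 fold change was 0.00 over the 57 genes and 0.05 over all genes. Each side of this comparison holds libraries of both number sets, and values within each set are given below. In bulk RNA, fewer cells of a type and less RNA per cell cannot be told apart.

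Among the fibrillar collagens, COL11A1, a minor chain of cartilage fibrils, ranged from 72.8 to 207 CPM in D425 with a median of 116.5 CPM. HD-MB03 had 0.0715 and 0.0716 CPM in the shCRX libraries and 0 in the vector and parental libraries, which is 2 counts in all, against 8426 counts in D425. The ratio of the lines was 2198, with a 95% counting interval of 608 to 18154, and the edgeR adjusted p was 2.77e-07. COL2A1, the main chain of cartilage fibrils, was also higher in D425, at 1.69 to 7.93 CPM, against 0 to 1.04 CPM in HD-MB03 (log2 fold change 2.52 ± 0.60 SE, edgeR adjusted p = 0.00418). The other direction was seen for COL5A1, a chain that starts fibril assembly, and for COL27A1. COL5A1 had a lowest, median and highest level of 14.8, 21.6 and 26.1 CPM in D425, against 194 and 197 CPM in the HD-MB03 shCRX libraries and 201 and 174 CPM in the vector and parental libraries. It was lower in D425 by a wide margin and with little spread within a line (log2 fold change -3.20 ± 0.17 SE, edgeR adjusted p = 1.4e-08). COL27A1 had 82.3, 107 and 444 CPM as lowest, median and highest in D425, against 973, 1136, 1313 and 964 CPM in HD-MB03 shCRX 1 and 2, vector and parental (log2 fold change -2.82 ± 0.33 SE, edgeR adjusted p = 3.75e-05). The lines do not overlap for any of these 4 genes.

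The head-to-head type IV pairs split between the lines. COL4A1 and COL4A2, the ubiquitous basement membrane chains, were lower in D425: COL4A1 had 68.8, 85.1 and 97.6 CPM as lowest, median and highest in D425, against 177, 167, 165 and 113 CPM in HD-MB03 shCRX 1 and 2, vector and parental (log2 fold change -0.86 ± 0.15 SE, edgeR adjusted p = 0.000631). COL4A2 had 153, 173 and 190 CPM in D425, against 288, 302, 335 and 282 CPM in HD-MB03 (log2 fold change -0.82 ± 0.13 SE, edgeR adjusted p = 0.000254). COL4A3 and COL4A4, chains of the glomerular and cochlear basement membranes whose loss causes Alport syndrome, were higher in D425. COL4A3 had 23.8, 57.0 and 87.0 CPM in D425, against 9.51, 6.59, 10.2 and 2.08 CPM in HD-MB03 (log2 fold change 2.94 ± 0.45 SE, edgeR adjusted p = 0.000285). COL4A4 had 47.8, 73.3 and 119 CPM in D425, against 17.9, 13.96, 22.5 and 7.29 CPM in HD-MB03 (log2 fold change 2.39 ± 0.33 SE, edgeR adjusted p = 0.000115). The lines did not overlap for these 4 genes. The ratio of COL4A2 to COL4A1 per kb was similar in the lines, at 1.80 to 2.29 in D425 and 1.65 to 2.53 in HD-MB03. That of COL4A4 to COL4A3 varied more, at 0.796 to 1.69 in D425 (median 1.29) and 1.52 to 2.83 in HD-MB03 (median 1.75). In the X-linked pair the levels were far apart. COL4A5, which joins COL4A3 and COL4A4 in a trimer, lay at 20.3 to 37.4 CPM in D425 and 23.4 to 43.2 CPM in HD-MB03 (log2 fold change -0.28 with a 95% interval of -0.64 to 0.08, edgeR adjusted p = 0.193). COL4A6 stayed at or below 0.767 CPM in every library but HD-MB03 shCRX replicate 2, where it was 8.45 CPM. The RefSeq starts of COL4A1 and COL4A2 used for the windows lie 127 bases apart, those of COL4A3 and COL4A4 419 and those of COL4A5 and COL4A6 380, and whether the counting used strand is not given in the sources used here.

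**Figure D2:**
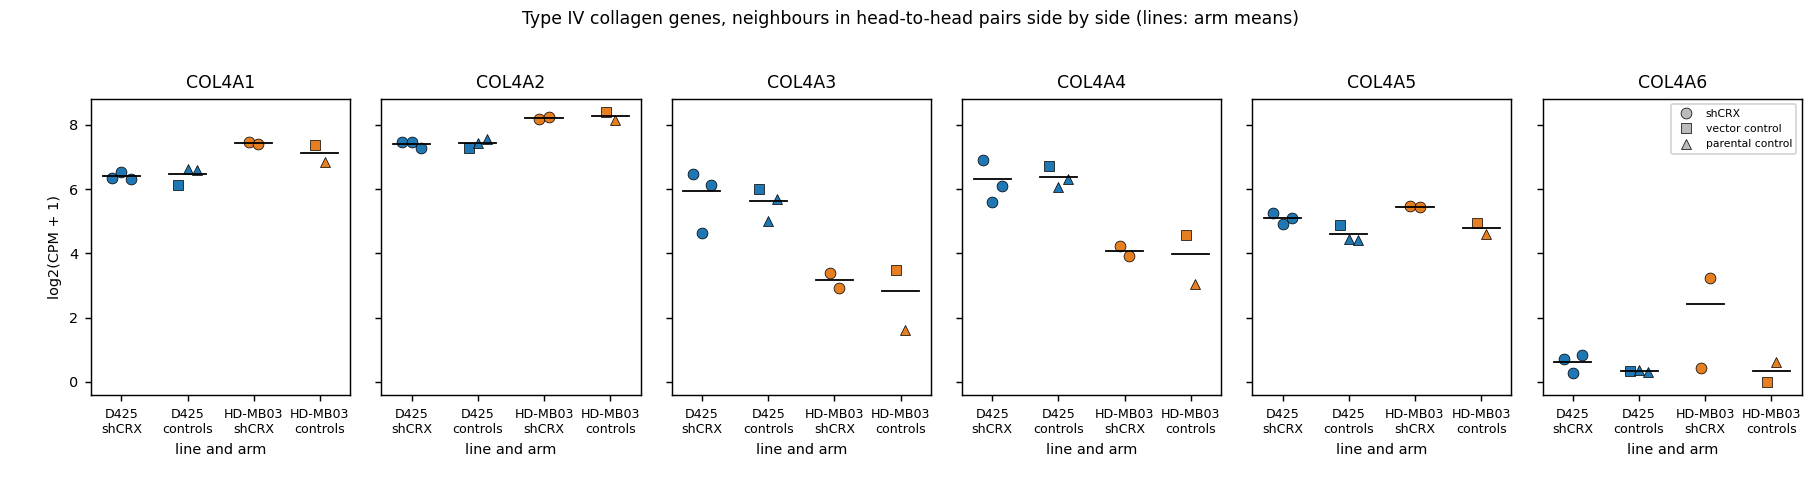
Level of the type IV collagen genes in each library as log2(CPM + 1), by line and arm, with arm means as lines. COL4A1 and COL4A2 sit higher in HD-MB03, COL4A3 and COL4A4 sit higher in D425, and COL4A6 is near 0 except in 1 HD-MB03 shCRX library at 8.45 CPM.

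Of the other collagens, the network chains COL8A1 and COL8A2, known from the basement membrane of the cornea, were higher in D425. COL8A1 ranged from 1.65 to 17.7 CPM in D425 and from 0 to 0.520 CPM in HD-MB03 (log2 fold change 4.08 ± 0.71 SE, edgeR adjusted p = 0.000537). COL8A2 had 78 counts over D425 and 2 over HD-MB03, a ratio of 20.3 with a counting interval of 5.45 to 171 (edgeR adjusted p = 0.00428). COL17A1, a membrane-spanning collagen of hemidesmosomes, had 66 counts over D425 and 3 over HD-MB03, a ratio of 11.5 with an interval of 3.76 to 57.1 (edgeR adjusted p = 0.0103), though the lines overlapped in CPM. COL21A1, a fibril-associated collagen, was uneven within D425, at 19.4, 0 and 3.58 CPM in shCRX 1 to 3 and 11.7, 1.12 and 1.05 CPM in the controls, against at most 0.501 CPM in HD-MB03. Where an arm has 0 counts, as here, the fitted fold is no bound, and the log2 ratio of mean CPM, with the arms of a line weighted equally, is given in its place. The COL21A1 call (log2 ratio of mean CPM 5.62, edgeR adjusted p = 0.0317) ended when D425 shCRX replicate 1, the D425 vector library or any of the 4 HD-MB03 libraries was left out, with adjusted p-values of 0.0923, 0.0625 and 0.0751 to 0.125 in the COL21A1 test.

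Of the other fibril-associated collagens, 4 were lower in D425. COL16A1 ranged from 8.58 to 63.2 CPM in D425 and from 94.4 to 186 CPM in HD-MB03 (log2 fold change -2.16, edgeR adjusted p = 0.000329), COL19A1 from 0.827 to 5.41 CPM and from 7.51 to 44.9 CPM (-3.14, edgeR adjusted p = 2.05e-05), and COL9A1 from 0.112 to 0.512 CPM and from 1.04 to 2.14 CPM (-2.78, edgeR adjusted p = 0.000852). None of these 3 overlapped between the lines. COL14A1 was low in both, at 0 to 0.504 CPM in D425 and 0.143 to 3.796 CPM in HD-MB03, and overlapped (log2 ratio of mean CPM -3.16, edgeR adjusted p = 0.0211); without the HD-MB03 vector or parental library it no longer passed (0.0705 and 0.0713). COL9A2 and COL9A3 did not pass, nor did the fibrillar COL11A2. COL22A1 did not pass either, with 47 counts over D425 and 2 over HD-MB03, a ratio of 12.3 with a counting interval of 3.21 to 104. The membrane-spanning COL25A1, known from the amyloid plaques of Alzheimer disease, lay at 1.02 to 4.48 CPM in D425, against 2.68 to 9.09 CPM in HD-MB03 (log2 fold change -1.58, edgeR adjusted p = 0.00138). Most of this difference lay between the shCRX arms, where COL25A1 averaged 1.05 CPM in D425, against 8.41 CPM in HD-MB03. Between the controls it averaged 3.89 CPM in D425, against 4.46 CPM in HD-MB03, with overlap.

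The collagen VI chain COL6A1 passed as higher and COL6A2 as lower in D425, but the COL6A1 direction was that of the controls alone. COL6A1 had 102, 193 and 959 CPM as lowest, median and highest in D425 and 110.8 to 153 CPM in HD-MB03 (log2 fold change 0.89 ± 0.31 SE, edgeR adjusted p = 0.037), while COL6A2 had 0.827 to 2.46 CPM in D425 and 3.79 to 12.03 CPM in HD-MB03 (log2 fold change -1.97 ± 0.41 SE, edgeR adjusted p = 0.00194). COL6A3, the third chain of the usual trimer, did not pass 1.90 CPM in any library. Per kb, COL6A1 exceeded COL6A2 by a median of 101 times in D425 and 19.2 times in HD-MB03. Between the shCRX arms COL6A1 averaged 106.8 CPM in D425, against 131.8 CPM in HD-MB03, and between the controls 526 CPM in D425, against 125 CPM in HD-MB03. The D425 levels of COL6A1 overlapped those of HD-MB03. Leaving out any of the 4 HD-MB03 libraries, or D425 shCRX replicate 1 or 2, ended the COL6A1 call, with edgeR adjusted p-values of 0.0533 to 0.12.

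The laminin set differed by chain. The alpha chains LAMA1 and LAMA2 were higher in D425, and LAMA5 was lower. LAMA1, the early embryonic alpha chain, had 73.8, 154 and 189 CPM as lowest, median and highest in D425, against 10.2, 11.3, 110 and 25.5 CPM in HD-MB03 shCRX 1 and 2, vector and parental (log2 fold change 2.38 ± 0.37 SE, edgeR adjusted p = 0.000342); the HD-MB03 vector library lay within the D425 range. LAMA2, the muscle and Schwann cell chain, had 1.94 to 4.18 CPM in D425 and 0 to 0.573 CPM in HD-MB03 (log2 ratio of mean CPM 4.28, edgeR adjusted p = 0.000508). LAMA5, the most widespread adult alpha chain, had 27.5, 71.5 and 159 CPM in D425, against 208, 216, 303 and 274 CPM in HD-MB03 (log2 fold change -1.85 ± 0.18 SE, edgeR adjusted p = 3.37e-06), with no overlap. Per kb, LAMA5 stood to LAMA1 at a median of 0.335 in D425 and 12.6 in HD-MB03.

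LAMC1 had 110.6, 140 and 171 CPM as lowest, median and highest in D425, against 525, 444, 689 and 440 CPM in HD-MB03 (log2 fold change -1.91 ± 0.18 SE, edgeR adjusted p = 2.66e-06). LAMC3, a gamma chain needed for normal folding of the human occipital cortex, had 3 counts over D425, against 265 over HD-MB03 at 7.16 to 19.3 CPM, a level lower in D425 by a ratio of 169 with a counting interval of 57.3 to 826 (edgeR adjusted p = 2.96e-07). LAMB1 did not pass between the lines (log2 fold change 0.32 with a 95% interval of -0.26 to 0.90, edgeR adjusted p = 0.347), and LAMB2, the beta chain of synaptic and glomerular laminins, was higher in D425 at 54.9 to 202 CPM, against 39.1 to 74.3 CPM in HD-MB03 (log2 fold change 0.87 ± 0.30 SE, edgeR adjusted p = 0.0309). LAMB2 overlapped between the lines and did not pass without the D425 vector library, HD-MB03 shCRX replicate 1 or the HD-MB03 vector library (adjusted p = 0.0666, 0.103 and 0.114). LAMB1 exceeded LAMC1 per kb by a median of 8.89 times in D425 and 1.62 times in HD-MB03. LAMA3 did not pass, and LAMA4, LAMB3 and LAMB4 were too low to be tested.

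Integrin receptors also differed by partner. ITGB8, which with the alpha-v subunit activates latent TGF-beta, ranged from 6.37 to 11.7 CPM in D425, against 0.143, 0.573, 0 and 0 CPM in HD-MB03 shCRX 1 and 2, vector and parental (log2 ratio of mean CPM 5.57, edgeR adjusted p = 9.17e-06). Its partner ITGAV did not pass (log2 fold change 0.43 with a 95% interval of -0.14 to 1.0004, edgeR adjusted p = 0.204), at 82.3 to 213 CPM in D425 and 81.2 to 125 CPM in HD-MB03. ITGA5, the alpha subunit of the classical fibronectin receptor, had 34.7, 52.5 and 67.3 CPM as lowest, median and highest in D425, against 1.36, 14.2, 3.22 and 0 CPM in HD-MB03 (log2 fold change 3.91 ± 0.64 SE, edgeR adjusted p = 0.000464). The lines did not overlap for ITGB8 and ITGA5. ITGA1, a collagen receptor subunit, was at 2.58 to 5.79 CPM in D425 and in HD-MB03 was detected only in shCRX replicate 2 at 3.87 CPM (log2 ratio of mean CPM 2.07, edgeR adjusted p = 0.0499). Without the HD-MB03 controls, which had 0 counts, the ITGA1 log2 fold change was 1.03 (edgeR adjusted p = 0.392). The ITGA1 call ended when any library but D425 parental replicate 1 or HD-MB03 shCRX replicates 1 and 2 was left out, with adjusted p-values of 0.0572 to 0.128. ITGA2B, the platelet fibrinogen receptor subunit, had 2.69 to 13.8 CPM in D425 and 0.715 to 3.75 CPM in HD-MB03, and overlapped (log2 fold change 1.47, edgeR adjusted p = 0.0339).

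Lower in D425 were ITGA4, at 44.3, 49.3 and 74.2 CPM as lowest, median and highest, against 302, 191, 160 and 131 CPM in HD-MB03 shCRX 1 and 2, vector and parental (log2 fold change -1.81 ± 0.18 SE, edgeR adjusted p = 5.42e-06), and ITGA8, the nephronectin receptor subunit, at 0 to 0.207 CPM in D425 with 4 counts in all, against 3.72, 5.44, 10.2 and 7.81 CPM in HD-MB03 (log2 fold change -6.42 ± 0.58 SE, edgeR adjusted p = 2.19e-06). Neither overlapped between the lines. The laminin receptor subunits ITGA7 (log2 fold change -1.97, edgeR adjusted p = 0.000343) and ITGA6 (-0.58, edgeR adjusted p = 0.0304) and the common subunit ITGB1 (-0.57, edgeR adjusted p = 0.028) were also lower in D425, each with overlap between the lines. For ITGA6 that direction was seen between the shCRX arms, at 59.6 to 113 CPM in D425, against 237 and 343 CPM in HD-MB03, and not between the controls, at 211 to 312 CPM in D425, against 153 and 203 CPM in HD-MB03. The direction of the arm means turned between shCRX and controls for COL6A1 and ITGA6, and for 0 of the other 32 genes that passed. Leaving out single libraries ended the calls of ITGA6 (D425 shCRX replicates 2 and 3, D425 parental replicate 2, HD-MB03 parental, HD-MB03 shCRX replicate 1; adjusted p = 0.0569 to 0.148), ITGB1 (D425 shCRX replicates 1 and 3, D425 vector, D425 parental replicate 2, HD-MB03 vector, HD-MB03 shCRX replicate 1; 0.0507 to 0.264) and ITGA2B (D425 shCRX replicates 1 and 3, D425 parental replicate 2, HD-MB03 shCRX replicate 1, HD-MB03 vector, HD-MB03 parental; 0.0587 to 0.105). Without the HD-MB03 vector library the ITGB1 difference was -0.24. ITGA2, ITGA3, ITGA9, ITGAE, ITGB4, ITGB5 and ITGB7 did not pass.

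**Figure D3:**
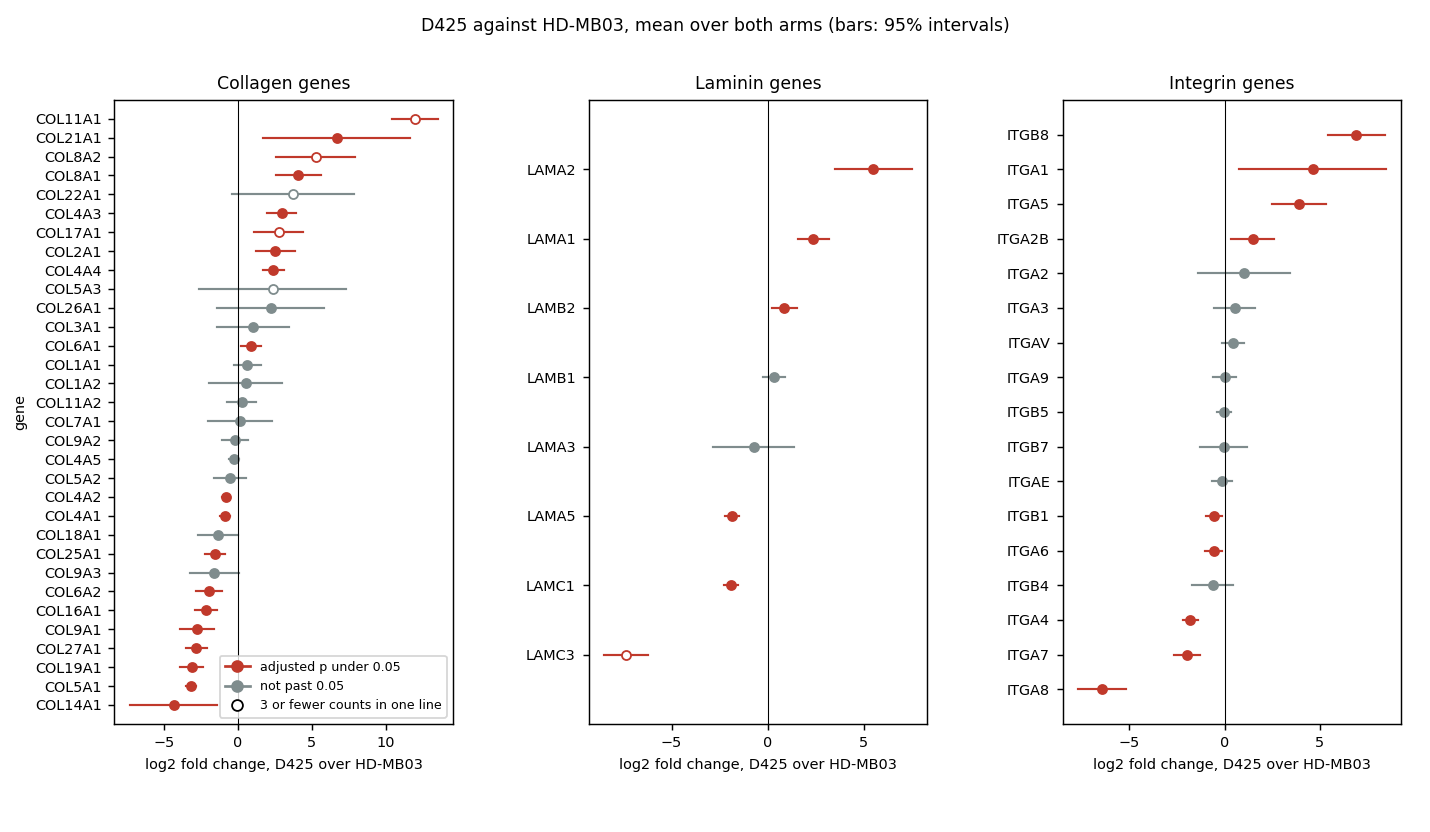
Fitted log2 fold change of D425 over HD-MB03 for the 57 genes tested, by family, with 95% intervals as bars and genes that passed in red. Open points have 3 or fewer counts over a line, so their fitted value is no bound, nor is that of COL14A1, COL21A1, ITGA1, ITGB8 and LAMA2, with an arm at 0 counts; COL5A1, LAMC1 and LAMA5 combine a clear difference with narrow intervals.

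Line differences were also tested within each set of library numbers. Each set holds the shCRX arm of a line and the controls of the other line. Line and shCRX label therefore cannot be told apart within a set. In the lower-numbered set (D425 shCRX against HD-MB03 controls) 21 of 57 genes passed, 8 higher and 13 lower, against 30.7% of all genes, 16.0% higher and 14.7% lower, and in the higher-numbered set (D425 controls against HD-MB03 shCRX) 31 passed, 11 higher and 20 lower, against 31.2% of all, 15.5% higher and 15.8% lower. In both sets 18 genes (31.6%) passed in the same direction, against 18.6% of all genes, and 0 in opposite directions. Higher were 6 (10.5%), against 9.38% of all, and lower were 12 (21.1%), against 9.25% of all. These were COL11A1, COL4A3, COL4A4, ITGA5, ITGB8 and LAMA2, higher in D425, and COL16A1, COL19A1, COL25A1, COL27A1, COL4A1, COL4A2, COL5A1, ITGA4, ITGA8, LAMA5, LAMC1 and LAMC3, lower in D425. COL5A1 had log2 fold changes of -3.18 and -3.22 in the lower- and higher-numbered sets. LAMA5 had -1.21 and -2.49, and COL4A4 had 2.40 and 2.38. For COL25A1 the controls of the lines overlapped, as given above. COL6A1, ITGA6, ITGA7, LAMA1 and LAMB2 were among 16 genes that passed in 1 set alone.

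In D425, 4 of the 57 genes (7.02%) passed between the libraries labelled shCRX and the controls, against 2.97% of all genes. LAMA5 rose, which is 1 gene higher (1.75%, against 1.61% of all), and ITGA6, COL6A1 and COL25A1 fell, which is 3 lower (5.26%, against 1.37% of all). The median log2 fold change was 0.22 over the 57 genes and 0.02 over all genes, with 32 positive and 25 negative. The depth, library numbers and summed Group 3, glial and fibroblast markers of the arms differ as given above. Genes within the glial and fibroblast lists went different ways. The glial transporter gene SLC1A3 (log2 fold change -1.50, edgeR adjusted p = 0.0144) and the synaptic vesicle gene SYP (-1.69, edgeR adjusted p = 0.000934) fell in D425 shCRX too, and the part of these in the results was not tested.

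LAMA5 (ENSG00000130702.9) had 97.9, 159 and 118 CPM in D425 shCRX 1 to 3, against 45.0, 27.5 and 41.1 CPM in the vector and parental libraries. All 3 shCRX libraries lay above all 3 controls, and the log2 fold change was 1.72 ± 0.23 (SE, edgeR adjusted p = 0.00228). The LAMA5 transcript holds 66.4% G or C, against a median of 48.6% over the tested genes, and with an offset for GC content and length the rise was 1.11 (edgeR adjusted p = 0.0483). Against the vector library alone it was 1.45 (edgeR adjusted p = 0.179). The D425 shCRX levels of LAMA5 stayed below every HD-MB03 library.

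ITGA6 (ENSG00000091409.10), which pairs with ITGB1 or ITGB4 into laminin receptors and marks stem-like cells in several tissues, had 113, 59.6 and 90.3 CPM in D425 shCRX, against 312, 268 and 211 CPM in the vector and parental libraries. The arms did not overlap, and ITGA6 fell (log2 fold change -1.59 ± 0.26 SE, edgeR adjusted p = 0.00708). It did not pass against the parental libraries alone (adjusted p = 0.0571) or the vector library alone (adjusted p = 0.123). Its beta partners did not pass: ITGB1 lay at 134 to 183 CPM in shCRX and 134 to 170 CPM in controls, and ITGB4 did not exceed 2.56 CPM in D425.

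COL6A1 (ENSG00000142156.10) had 104, 114 and 102 CPM in D425 shCRX, against 347, 271 and 959 CPM in the vector library and parental replicates 1 and 2. The shCRX libraries were close together and the controls were spread, with parental replicate 2 highest. COL6A1 fell (log2 fold change -2.30 ± 0.40 SE, edgeR adjusted p = 0.0134). Without parental replicate 2 it fell by 1.57 (edgeR adjusted p = 0.0038), and without shCRX replicate 1 the fall of 2.30 no longer passed (edgeR adjusted p = 0.0539). COL6A2 lay at 0.827 to 1.85 CPM in shCRX and 1.27 to 2.46 CPM in controls, with overlap.

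COL25A1 (ENSG00000188517.10) had 1.11, 1.03 and 1.02 CPM in D425 shCRX, which is 21 counts, against 3.64, 4.48 and 3.55 CPM in the controls, which is 164 counts. It fell (log2 fold change -1.86 ± 0.41 SE, edgeR adjusted p = 0.0308), with no overlap of the arms. The call is the least firm of the 4: leaving out shCRX replicate 1, 2 or 3, parental replicate 1 or the vector library gave COL25A1 edgeR adjusted p-values of 0.0742, 0.061, 0.0951, 0.104 and 0.0747.

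**Figure D4:**
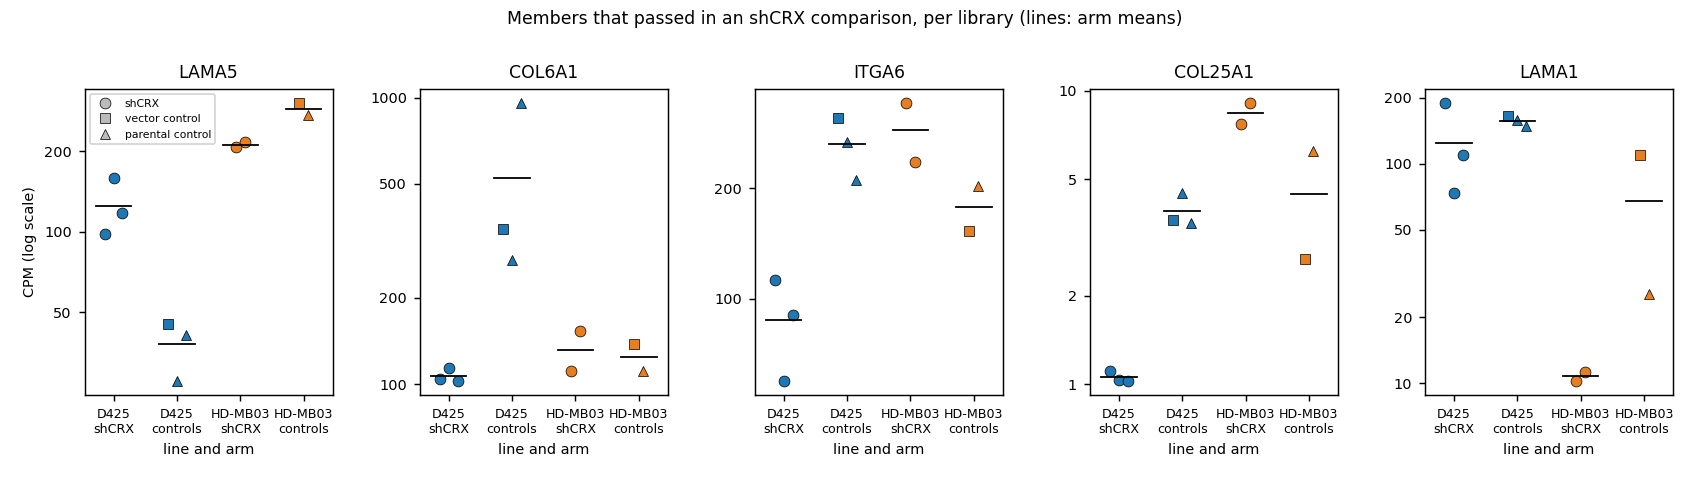
CPM per library on a log axis for the 5 genes that passed in a comparison of shCRX with controls, by line and arm, with circles for shCRX, squares for vector and triangles for parental libraries and lines at arm means. In D425 the arms of LAMA5, COL6A1, ITGA6 and COL25A1 do not overlap, and for LAMA1 in HD-MB03 the vector library (110 CPM) stands apart from the parental library (25.5 CPM).

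Several other D425 genes had separated arms without passing, and only some are described here. COL11A2, COL1A1, ITGA2, ITGAE and LAMA2 were among the rest. The share of all genes with separated arms is not given, so separation is described for each gene alone. LAMB1 measured 749, 293 and 510 CPM in shCRX, against 1648, 1410 and 931 CPM in the controls (log2 fold change -1.36, edgeR adjusted p = 0.0533). ITGB5, which pairs with the alpha-v subunit as a vitronectin receptor, measured 50.7, 53.1 and 58.3 CPM in shCRX, against 22.6, 40.1 and 25.7 CPM in the controls (0.87, edgeR adjusted p = 0.0538). COL9A2, a fibril-associated chain of cartilage, measured 5.63, 3.10 and 7.93 CPM in shCRX, against 1.55, 0.896 and 2.02 CPM in the controls (1.90, edgeR adjusted p = 0.0545). The type IV pairs showed no separation between the arms of D425 apart from COL4A5, at 37.4, 29.4 and 33.5 CPM in shCRX, against 28.2, 21.0 and 20.3 CPM in the controls (0.53, edgeR adjusted p = 0.198). LAMB4 was too low for the test, with 2 counts in shCRX and 46 in controls, a level lower in shCRX by a ratio of 10.9 with a counting interval of 2.86 to 92.8. COL5A3, a minor chain of collagen V, had 13 counts in shCRX and 1 in controls, higher in shCRX by a ratio of 27.4 with an interval of 4.11 to 1164 (edgeR adjusted p = 0.0595).

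In HD-MB03, 1 of the 57 genes (1.75%) passed between the libraries labelled shCRX and the controls, against 1.51% of all genes. It was lower in shCRX, as were 1.24% of all genes. LAMA1 (ENSG00000101680.9) had 10.2 and 11.3 CPM in shCRX, against 110 CPM in the vector and 25.5 CPM in the parental library, and fell (log2 fold change -2.65 ± 0.57 SE, edgeR adjusted p = 0.0468). The controls differed from each other by more than the lower of them differed from shCRX. Without the vector library LAMA1 was at -1.22 on that scale (edgeR adjusted p = 0.226), and leaving out either shCRX library gave adjusted p-values of 0.268 and 0.215. Leaving out D425 shCRX replicate 3, the D425 vector library or D425 parental replicate 2, which share in the estimate of the spread, gave 0.0589, 0.069 and 0.0854. CRX itself was higher in these shCRX libraries, so the direction is that of the library labels alone. In D425, LAMA1 lay at 73.8 to 189 CPM in shCRX and 149 to 165 CPM in controls.

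The median log2 fold change in HD-MB03 was 0.43 over the 57 genes and 0.10 over all genes, with 39 positive and 18 negative. Without shCRX replicate 2 it was 0.06 over 59 tested members and 0.07 over all genes, with 30 positive and 29 negative. That library stood apart in this gene group: of the 54 members with at least 10 counts in it, 13 (24.1%) were at least 3 times as high there as in each other HD-MB03 library, against 625 of 15379 genes (4.06%), and in the other 9 libraries 0 to 2 members met the same rule within their line. The 13 were the basement membrane chains COL4A6, COL18A1, LAMA3 and LAMA4, the anchoring fibril collagen COL7A1, the membrane-spanning COL13A1 and COL23A1, COL14A1, COL24A1 and COL26A1, and the receptor subunits ITGA1, ITGA2 and ITGA5. LAMA4, a laminin alpha chain of vessels and mesenchyme, measured 0.286 CPM in shCRX replicate 1 and 8.38 CPM in replicate 2, against 0 in both controls. LAMA3, the epithelial alpha chain, measured 0.429 and 12.7 CPM in shCRX, against 0.536 and 1.04 CPM in the vector and parental libraries. ITGA5 measured 1.36 and 14.2 CPM in shCRX, against 3.22 and 0 CPM. COL18A1, the source of endostatin, measured 1.29 and 11.7 CPM in shCRX, against 3.22 and 1.56 CPM. The controls of HD-MB03 are shallow, so 3 counts there correspond to 1.53 and 1.44 CPM.

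Outside the group, IRS4, LCP1, DSC3, KRT8 and HOXA9, picked after their values were seen, measured 58.2, 44.0, 21.1, 22.1 and 9.74 CPM in HD-MB03 shCRX replicate 2, and at most 1.61 CPM in the other HD-MB03 libraries. Summed fibroblast markers were 164 to 201 CPM in the HD-MB03 shCRX libraries, and leukocyte and endothelial markers did not pass 5.94 and 3.44 CPM there. Why this library differs was not tested.

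**Figure D5:**
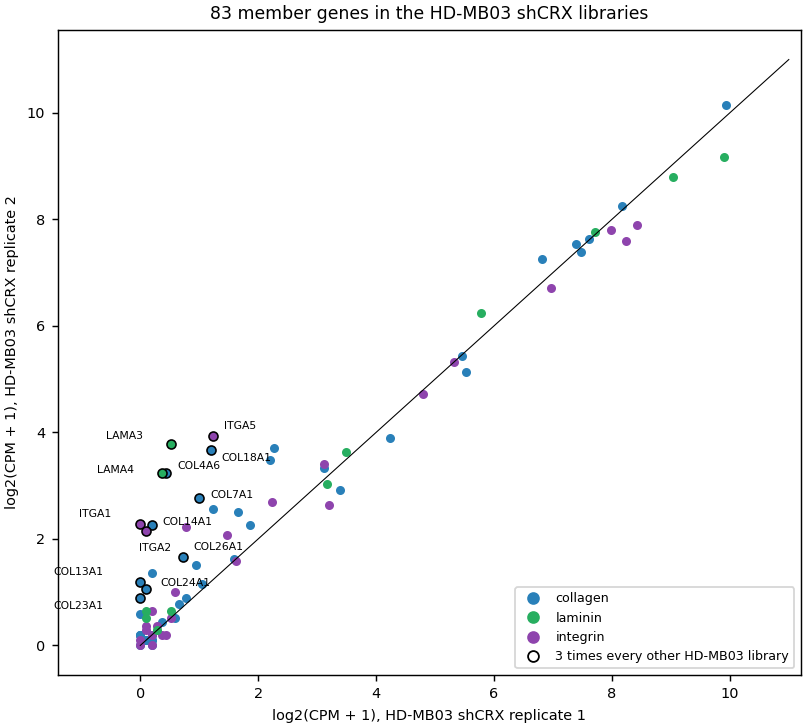
Level of each of the 83 genes as log2(CPM + 1) in HD-MB03 shCRX replicate 1 (horizontal) and replicate 2 (vertical), by family, with the line of equal levels. The 13 outlined genes lie well above the line, among them LAMA3 (0.429 and 12.7 CPM) and LAMA4 (0.286 and 8.38 CPM), while high-level genes lie close to it.

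Averaged over the lines, 0 of the 57 genes passed for shCRX against controls by edgeR, against 0.225% of all genes (0.0187% higher and 0.206% lower). At an unadjusted p under 0.05 there were 13 such genes (13.2% of all genes met this too), and DESeq2 called 3. The lowest adjusted p was shared by LAMA1 (mean log2 fold change -1.49) and ITGA7, a laminin receptor subunit of muscle. ITGA7 measured 7.57, 7.24 and 7.16 CPM in D425 shCRX, against 1.55, 3.19 and 2.99 CPM in the controls, and 26.9 and 25.4 CPM in HD-MB03 shCRX, against 4.29 and 18.2 CPM in the vector and parental libraries. The arms did not overlap in either line, and the mean log2 fold change was 1.35 ± 0.33 (SE, edgeR adjusted p = 0.132).

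The effect of the shCRX label differed between the lines for 3 of the 57 genes (5.26%), against 4.16% of all genes. The difference was positive for 1 gene, against 2.67% of all, and negative for 2, against 1.49% of all. For LAMA5 the difference, D425 minus HD-MB03, was 2.17 in log2 units (SE 0.36, edgeR adjusted p = 0.00708), made of 1.72 in D425 and -0.45 in HD-MB03, where it measured 208 and 216 CPM in shCRX, against 303 and 274 CPM in controls. With the offset for GC content and length this difference was 1.08 (edgeR adjusted p = 0.218). For ITGA6 the difference was -2.29 ± 0.41 (SE, edgeR adjusted p = 0.00999), with -1.59 in D425 and 0.70 in HD-MB03, where it measured 343 and 237 CPM in shCRX, against 153 and 203 CPM in controls. For COL25A1 it was -2.77 ± 0.63 (SE, edgeR adjusted p = 0.0294), with -1.86 in D425 and 0.91 in HD-MB03, where it measured 7.72 and 9.09 CPM in shCRX, against 2.68 and 6.25 CPM in controls. The COL25A1 difference did not pass without any 1 of D425 parental replicate 1, D425 shCRX replicate 3, the D425 vector library or the HD-MB03 shCRX or vector libraries, with adjusted p-values of 0.0512 to 0.0819. CRX itself differed between the lines in the same comparison, and the library-number sets are reversed between them.

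Genes that work with these chains and receptors were taken as lists. Between the lines 46.0% of all genes passed, against which 70.0% of tested basement membrane partners, 57.1% of collagen processing genes, 55.6% of adaptors, 44.0% of other receptors and 45.0% of proteases did. Of basement membrane partners such as nidogens, perlecan and agrin, 20 of 27 were tested, and 4 were higher and 10 lower in D425 than in HD-MB03. FBLN1, a matrix glycoprotein, averaged 0.154 CPM in D425 shCRX and 0.317 CPM in D425 controls, against 216 and 267 CPM in HD-MB03 shCRX and controls. FRAS1, which anchors epithelium to mesenchyme, averaged 0.277 and 1.003 CPM in D425 shCRX and controls, against 97.0 and 75.3 CPM in HD-MB03. NTN1 and TNR passed in the same direction (log2 fold changes of -8.42 and -6.04). Of enzymes and chaperones of collagen processing, 28 of 32 were tested, with 7 higher and 9 lower in D425, among them the procollagen protease ADAMTS14 (-5.91) and the glycosyltransferase COLGALT2 (-4.95), which were lower. The prolyl hydroxylase P3H2 was lower too, at averages of 0.0689 and 0.0456 CPM in D425 shCRX and controls, against 1.86 and 7.43 CPM in HD-MB03. Of integrin adaptors, 27 of 30 were tested, with 9 higher and 6 lower: the parvins split, with PARVA lower at averages of 0 and 0.302 CPM in D425 shCRX and controls, against 8.98 and 11.1 CPM in HD-MB03, and PARVB higher at 55.9 and 39.3 CPM, against 3.01 and 0 CPM, and the tensin TNS3 (-8.48) and kindlin FERMT1 (-4.81) were lower. Of other matrix receptors, 25 of 28 were tested, with 3 higher and 8 lower, including the hyaluronan receptor CD44, which averaged 0 and 0.781 CPM in D425 shCRX and controls, against 26.1 and 34.5 CPM in HD-MB03, and the collagen receptor DDR2, higher at 72.6 and 96.8 CPM, against 9.20 and 1.32 CPM. Of matrix proteases and their inhibitors, 20 of 30 were tested, with 2 higher, among them TIMP3 (4.57), and 7 lower, among them TIMP2 (-5.38), MMP17 (-3.48) and MMP16 (-3.29). The D425 shCRX arm held 1 count of NTN1 and 2 counts each of TNR, ADAMTS14, TNS3 and MMP16. The sizes of the fitted folds of these genes are therefore uncertain.

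The lists were also set between the libraries labelled shCRX and the controls. In D425, where 2.97% of all genes passed, 2 basement membrane partners (10.0%) rose, 1 collagen processing gene (3.57%) rose, 1 adaptor (3.7%) rose, 1 receptor rose and 2 fell (12% of receptors), and 0 of 20 proteases passed by edgeR (4 at an unadjusted p under 0.05). Agrin (AGRN), a heparan sulfate proteoglycan that binds laminin, averaged 13.9 CPM in D425 shCRX, against 4.62 CPM in controls (log2 fold change 1.59 ± 0.24 SE, edgeR adjusted p = 0.00515), and in HD-MB03 averaged 93.3 CPM in shCRX, against 254 CPM in controls (-1.45 ± 0.27 SE, edgeR adjusted p = 0.0198). Its difference between the lines was 3.03 (edgeR adjusted p = 0.000946), in the same direction as that of LAMA5. Others that passed in D425 were FREM2 (1.94), the collagen chaperone FKBP10 (0.93), FERMT1 (1.96) and the collagen receptor DDR1 (1.42), which rose, and SGCD of the sarcoglycan complex (-2.08) and CD44, which fell to 0 CPM in shCRX, against 0.781 CPM in controls. In HD-MB03, AGRN and the adaptors NEDD9 (-2.20) and TNS3 (-1.57) fell, and 0 genes of the collagen processing, other receptor and protease lists passed by edgeR (5, 4 and 5 at an unadjusted p under 0.05).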

How the data were processed

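The deposited values were raw read counts per gene, 1 table for each library. Per the submitters' processing notes, the authors used HTSeq, HISAT2, bcl2fastq, DESeq2 and the build GRCh37 (hg19), and tool versions are not given there. RNA was poly(A)-selected. Each of the 10 tables held 57820 gene identifiers, of which 52338 were matched to a symbol, and 5 summary entries, which entered neither library sizes nor tests; 50.5% to 79.3% of reads lay in genes. The annotation and RefSeq promoter windows were of GRCh38 and served only for symbols, gene types, transcript length, GC content and printed reference sequence.

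The members and the gene lists were chosen with earlier results of these data known. Counts were tested in R 4.3.3 with edgeR 4.0.16 (filterByExpr, TMM scaling, robust quasi-likelihood fit, 4 means of line and arm, 6 residual degrees of freedom, 16006 genes tested, biological coefficient of variation 26.0%), two-sided, with Benjamini-Hochberg adjustment over all genes and a threshold of 0.05. CPM are counts over the TMM-scaled library size; the 3-count floors use library totals. Where a member with 1 to 3 counts on a side is given as a ratio, its counting interval is 95%, exact binomial. Genes of the lists are given without such a ratio. Counting intervals and floors cover counting error alone. Named genes were those that passed in any comparison, the 5 highest per kb in each line, up to 4 called genes of each list and CRX; others named are described as chosen otherwise. Alternatives were DESeq2 1.42.0, limma-voom (limma 3.58.1), other scalings, no filter, single control types, thinning, a GC and length offset, a replicate block and leaving out each library. Leaving out the HD-MB03 controls was added after seeing the data. The fit was checked on simulated data. No libraries were identical, and within an arm the chi-square divided by its degrees of freedom was 9.24 to 54.3, above sampling noise. Reads shared by paralogs, overlapping or antisense genes are uncertain. Results for some genes are not reported here.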

Additional observations from a re-analysis of the deposited data

Results flagged for a closer look

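The effect of the shCRX label differed between the lines, by a test of the difference itself, for LAMA5, ITGA6 and COL25A1. The difference, D425 minus HD-MB03 on the log2 scale, was 2.17 for LAMA5, -2.29 for ITGA6 and -2.77 for COL25A1. Within D425 the effects were 1.72, -1.59 and -1.86, and within HD-MB03 they were -0.45, 0.70 and 0.91, in the order LAMA5, ITGA6, COL25A1. CRX itself had a difference of -2.14 (edgeR adjusted p = 0.0199), and the sets of library numbers are reversed between the lines, so neither can be told apart from the difference.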

How the results depend on the processing

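Of 866 values of called genes under the alternatives, 746 kept direction and call, 120 kept direction without passing and 0 reversed. Of the 34 differences between the lines, 19 passed under every alternative and 4 (COL2A1, COL8A2, COL9A1 and LAMA2) in each where they could be tested; of those between shCRX and controls, and of the differences between the effects, 0 did. For shCRX in D425, 4 genes became 10 with DESeq2, 8 with library totals, 9 with limma-voom, 14 with no filter, 2 against parental and 0 against vector controls, and 3 to 6 on leaving out 1 library. For HD-MB03, 1 became 6 with no filter and 0 with library totals, limma-voom, the GC and length offset, thinning, the replicate block, and parental or vector controls alone, and 0 to 1 on leaving out 1 library. For the mean of the lines, 0 became 3 with DESeq2 and 5 with no filter, and 0 to 1 on leaving out 1 library. For the difference of the effects, 3 became 7 with DESeq2, 11 with no filter, 1 against parental and 0 against vector controls, and 2 to 5 on leaving out 1 library. The line comparison gave 26 to 35, and 27 to 33 on leaving out 1 library; without the HD-MB03 controls it gave 11 higher and 21 lower. Line differences in both number sets fell to 10 with vector controls alone, and were 15 to 20 on leaving out 1 library. Over all genes, the D425 count of 476 became 955 with DESeq2, 1211 with no filter, 104 and 8 against parental and vector controls, 307 after thinning and 185 to 430 on leaving out 1 library, and dropped by 359 with the block. The HD-MB03 count of 241 became 779 with DESeq2, 790 with no filter, 62 and 1 against parental and vector controls, 127 with the block and 15 to 329 on leaving out 1 library. The mean count of 36 became 366 and 405 with DESeq2 and no filter and 0 to 73 otherwise. The line count of 7365 became 4613 with vector controls alone. The difference count of 666 became 1336 and 1579 with these, 369 with the offset, 227 and 3 against parental and vector controls 287 with the block and 177 to 841 on leaving out 1 library. The cause of these shifts was not tested. Single control types also leave fewer libraries, and the part of that was not tested either. Library totals moved the median of all genes by 0.13 in D425 and 0.11 between the lines. With a replicate block on same-numbered parental and shCRX libraries of D425, 4 genes passed in D425, 3 in the difference, 26 between the lines and 12 in both number sets. COL25A1 no longer passed (adjusted p = 0.191). Those libraries had only the number in common (correlation of their deviations 0.0258). Depth limits the HD-MB03 controls most, where a gene near 1 CPM has about 3 counts or fewer.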
